A study of Mus musculus with 12 samples.

Results

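The genes examined here encode parts of the axoneme, the microtubule core of the sperm flagellum. They were chosen by name: every entry of the count tables whose symbol is Cfap (cilia and flagella associated protein) or Rsph (radial spoke head) followed by a number, together with Spag6, Spag6l, Spag16, Spag17, Hydin, Spef1 and Spef2. There were 49 such genes, 34 of them Cfap genes, 8 Rsph genes and 7 of the named genes. The sperm table, with 51826 entries, held 41 of them, the testis table, with 23502 entries, held 48, and 40 were in both. Under these symbols, Rsph10b was listed only for sperm, and Cfap20dc, Cfap298, Cfap299, Cfap300, Cfap410, Cfap47, Cfap97d1 and Cfap97d2 only for testes. The rule itself uses names and no measured values.

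RNA-seq was carried out on cauda epididymal sperm of P56 mice, WT and Xap5l KO, and on whole testes of P16 mice, WT and Xap5 cKO, with 3 libraries per group that the design text calls biological replicates. The Xap5l KO is a global CRISPR/Cas9 deletion. In Xap5 cKO mice the floxed Xap5 gene is deleted by Stra8-GFPCre, which acts in male germ cells as they differentiate towards meiosis, so the somatic cells of the testis keep Xap5. The lines were made on the C57BL/6J background. The labels call the testis controls WT, and the study's text describes its controls for the cKO as Xap5 fl/Y males, which carry the floxed allele without Cre.

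The motile axoneme has outer microtubule doublets around a central pair. Radial spokes reach from each doublet towards the projections of the central apparatus, and contact between spokes and projections coordinates the dynein motors that bend the flagellum. Other members sit inside the doublet wall or tether the inner dynein arms. Spermatogenic cells transcribe flagellar genes in meiosis and in round spermatids, and mature sperm carry RNA left from those stages with little or no transcription of their own. Members were grouped by the part of the axoneme they are known for: radial spoke, central apparatus, doublet and inner proteins of the doublet wall, dynein tether together with the MIA complex (modifier of inner arms), and other Cfap genes.

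The library totals lay between 32251198 and 52308452 counts. Levels are given as CPM, counts scaled to library size after TMM correction,, separately for each tissue, and levels of different genes are compared only as CPM per kilobase of exon. Xap5l, listed as Fam50b, had a log2 fold change of -5.15 (standard error 0.466, edgeR adjusted p = 0.0118) in Xap5l KO sperm. Xap5, listed as Fam50a, changed by -0.33 on the log2 scale in Xap5 cKO testes (standard error 0.126, edgeR adjusted p = 0.0495), under the 2-fold threshold, and somatic cells contribute to its counts. Fam50b also fell in Xap5 cKO testes, from 532, 539 and 197 counts to 6, 0 and 7. Sperm RNA held somatic transcripts as well: summed leukocyte markers stood at 4320 to 4890 CPM in WT and 2530 to 3130 CPM in Xap5l KO sperm. Most of that sum was 1 gene, Cd52, with means of 3990 and 2520 CPM, so the sum does not measure leukocytes at large. Summed epididymal epithelium markers stood at 5230 to 7280 CPM in WT and 3930 to 5280 CPM in Xap5l KO sperm. Markers of elongating spermatids, whose transcripts mature sperm retain, reached 51200 to 128000 CPM in WT and 41600 to 79200 CPM in Xap5l KO sperm and stayed at or under 0.768 CPM in P16 testes, which hold no such cells. In whole testes, fewer cells of a type and less RNA per cell cannot be told apart.

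Promoter sequences were read for 39 of the 49 genes, with 43 promoters among 32851 in the RefSeq table for GRCm38.p6, each from 250 bases before to 50 bases after a start site. An X-box-like pattern, made of GTNNCC, any 3 bases and then GNNAC, which resembles the element bound by RFX factors of ciliary genes, was found on either strand in 12 of these 43 promoters, or 27.9%, against 4.62% of all promoters of that length. Its shorter form GTTGCC, which can be the first part of the longer pattern, was in 41.9% against 12.5%, and the GC-box letters CCCGCCC in 41.9% against 25.6%. These matches are descriptions of letters and were not tested as binding sites, and base composition was not matched. Of the 11 promoters of members that rose in sperm and fell in testes, 6 held the longer pattern, 3 held GTTGCC and 5 held CCCGCCC. The sequences from 110 bases before to 20 bases after the start are shown for the 5 of those genes that hold the longer pattern within this stretch, and for Spag6 as a gene without it that was called in sperm and not in testes; capitals mark the match to the X-box-like pattern on either strand. The 5 were chosen for that match and do not stand for the other genes called in both tissues. Nor does Spag6 stand for the genes called in sperm alone. Of those, Cfap77 held the longer pattern in its promoter, upstream of the stretch shown, and Cfap100 did not hold it.
Cfap206, chr4:34730187-34730316, minus strand: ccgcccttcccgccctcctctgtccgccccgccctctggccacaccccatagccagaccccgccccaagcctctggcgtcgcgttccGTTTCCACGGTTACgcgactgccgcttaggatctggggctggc
Cfap45, chr1:172521020-172521149, plus strand: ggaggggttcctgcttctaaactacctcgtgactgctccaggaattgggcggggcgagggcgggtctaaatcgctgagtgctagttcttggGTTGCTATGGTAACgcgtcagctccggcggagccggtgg
Cfap61, chr2:145934674-145934803, plus strand: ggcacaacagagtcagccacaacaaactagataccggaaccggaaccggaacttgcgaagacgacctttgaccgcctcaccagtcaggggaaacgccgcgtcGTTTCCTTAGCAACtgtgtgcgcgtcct
Rsph9, chr17:46144181-46144310, minus strand: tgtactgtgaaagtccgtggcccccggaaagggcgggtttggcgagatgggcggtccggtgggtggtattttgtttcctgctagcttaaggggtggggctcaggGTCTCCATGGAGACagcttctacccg
Spag16, chr1:69826860-69826989, plus strand: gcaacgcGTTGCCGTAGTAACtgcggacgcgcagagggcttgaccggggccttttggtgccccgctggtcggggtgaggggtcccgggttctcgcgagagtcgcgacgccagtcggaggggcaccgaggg
Spag6, chr2:18698912-18699041, plus strand: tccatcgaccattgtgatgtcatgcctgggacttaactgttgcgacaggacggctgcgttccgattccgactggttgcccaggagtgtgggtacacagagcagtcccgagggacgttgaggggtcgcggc
The match began 23 bases before the start of Cfap206, 19 before Cfap45, 8 before Cfap61, 6 before Rsph9 and 103 before Spag16.

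In Xap5l KO sperm, 16 of the 40 members that passed the filter on low counts were higher than in WT (edgeR, adjusted p under 0.05 and more than 2-fold), and none was lower. Over all 20945 genes tested, 7.59% were called higher and 1.27% lower. The count of 0 lower members was also 0 at an unadjusted p under 0.05 and in DESeq2. The log2 fold change was positive for 39 of 40 members with a median of 0.82, with quartiles at 0.56 and 1.29, where the median over all genes was -0.08. Members listed in sperm under older names are not among the 40. Of those, Cfap97d2, Cfap20dc and Cfap410 were negative (-0.94, -0.59 and -0.09). Cfap47, Cfap299, Cfap97d1, Cfap298 and Cfap300 were positive (0.16 to 1.3). In 28 members the lowest Xap5l KO library exceeded the highest WT library, against 19.2% of all genes. By adjusted p alone, 20 members were higher and 0 lower, against 9.02% and 3.07% of all genes. Rsph4a, with 12 counts or fewer in every library, was not tested.

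**Figure D1:**
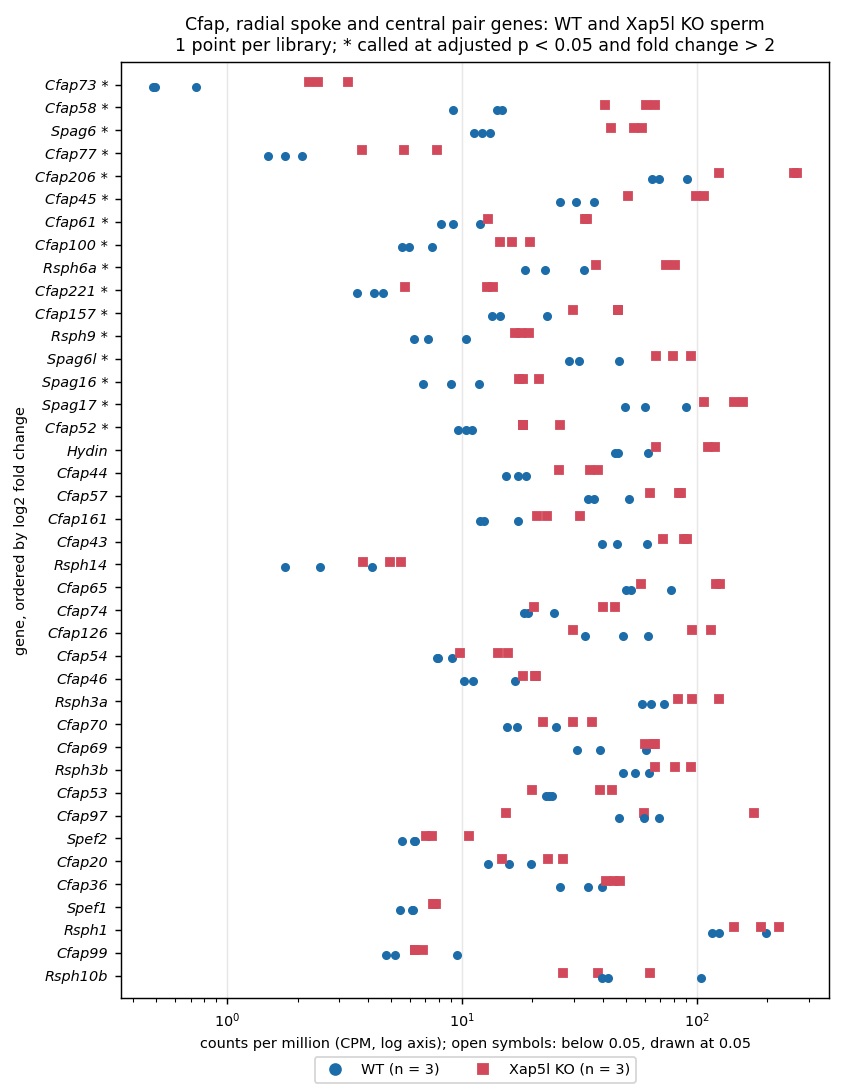
Levels in CPM on a log axis for the 40 members tested in sperm, 1 point per library, with WT as circles and Xap5l KO as squares, ordered by log2 fold change. The 16 members marked with an asterisk, from Cfap73 to Cfap52, were called higher; Hydin, Cfap44, Cfap57 and Cfap161, just under the 2-fold line, also had no overlap between the groups.

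Among the radial spoke genes, 4 of 9 tested members rose. Cfap206, a spoke-base protein on chromosome 4 (34688559 to 34730206, minus strand), had 91.3, 64.7 and 69.3 CPM in WT and 260, 268 and 125 CPM in Xap5l KO sperm. Its groups did not overlap, although the third KO library stood far below the other 2. The log2 fold change was 1.53 (standard error 0.318, edgeR adjusted p = 0.0199). Cfap61, of a complex at the base of the spokes, had 11.9, 8.18 and 9.15 CPM against 34.2, 33.5 and 12.9 CPM, and the lowest KO library was only just above the highest WT library. Its log2 fold change was 1.46 (standard error 0.354, edgeR adjusted p = 0.0314).

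Rsph6a, a spoke head protein of sperm, had 33.3, 18.5 and 22.6 CPM in WT and 74.3, 81.2 and 37.4 CPM in Xap5l KO sperm. The groups did not overlap and the log2 fold change was 1.38 (standard error 0.328, edgeR adjusted p = 0.0306). Rsph9, another spoke head protein, had 10.4, 6.23 and 7.21 CPM against a narrow 16.8, 19.4 and 17.8 CPM, a log2 fold change of 1.18 (standard error 0.235, edgeR adjusted p = 0.0189). Rsph1, a spoke head protein that was the most abundant member per length in both tissues, had 197, 124 and 116 CPM in WT and 224, 188 and 144 CPM in Xap5l KO sperm. These groups overlapped, and the log2 fold change of 0.35 (standard error 0.279, edgeR adjusted p = 0.396) did not pass the test. Rsph3a and Rsph3b encode spoke proteins and are near-identical copies. Of the 100-base stretches of Rsph3a, 59.8% also occur in Rsph3b, and 64.8% the other way, so the division of reads between them is uncertain. Their log2 fold changes were 0.64 and 0.55 (edgeR adjusted p = 0.0842 and 0.115). Rsph14 had a log2 fold change of 0.76 (edgeR adjusted p = 0.142). Of the 40 members tested under their present symbols, Rsph10b was the one with a negative value, -0.53 (standard error 0.419, edgeR adjusted p = 0.394), and its exons overlap Pms2 on the same strand.

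In the central apparatus, 5 of 13 tested members rose. Spag6, an armadillo-repeat protein of the central apparatus on chromosome 2 (18694032 to 18750413, plus strand), had 13.2, 12.2 and 11.3 CPM in WT sperm and 54.3, 58.8 and 43.3 CPM in Xap5l KO sperm. Every KO library was more than 3 times the highest WT library. The log2 fold change was 2.09 (standard error 0.208, edgeR adjusted p = 0.0118). Spag6l, its paralog on chromosome 16 (16753016 to 16829456, minus strand), had 46.7, 31.6 and 28.7 CPM against 79.3, 94.6 and 67.3 CPM, a log2 fold change of 1.17 (standard error 0.25, edgeR adjusted p = 0.0215). The 2 paralogs shared no stretch of 100 bases, so reads that long tell them apart. Per kilobase, Spag6 stood at 3.6 ± 0.277 CPM and Spag6l at 7.83 ± 2.12 CPM in WT sperm (SD, n = 3), and at 15.4 ± 2.34 and 17.6 ± 3.01 CPM in Xap5l KO sperm.

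Spag17, a large protein of a central apparatus projection, had 90, 60 and 49.3 CPM in WT and 144, 158 and 108 CPM in Xap5l KO sperm. Its groups did not overlap and the log2 fold change was 1.04 (standard error 0.275, edgeR adjusted p = 0.0397). Spag16, a WD-repeat protein of the central apparatus, had 11.8, 8.96 and 6.82 CPM against 18.2, 21.3 and 17.5 CPM (log2 fold change 1.05, standard error 0.239, edgeR adjusted p = 0.0263). Cfap221 had 4.61, 3.59 and 4.23 CPM against 12.8, 13.6 and 5.71 CPM, again with the third KO library nearest to WT (log2 fold change 1.37, standard error 0.324, edgeR adjusted p = 0.0296). Hydin, which builds a projection of the central pair, had 62.3, 45.1 and 46.2 CPM against 120, 112 and 66.9 CPM. It passed the adjusted p but lay just under the 2-fold line (log2 fold change 0.96, standard error 0.268, edgeR adjusted p = 0.0467). Spef1 and Spef2, a central pair microtubule-bundling protein and a central apparatus protein, had log2 fold changes of 0.36 and 0.47 (edgeR adjusted p = 0.22 and 0.182). The exons of Spag17 overlap Spag17os and Wdr3 on the other strand, and the use of strand in counting is not given in the sources used here.

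Among the doublet genes, 3 of 7 tested members rose, all of them known as proteins of the inside of the doublet microtubule. Cfap45 had 36.4, 30.5 and 26.3 CPM in WT and 99.4, 108 and 51.2 CPM in Xap5l KO sperm (log2 fold change 1.47, standard error 0.296, edgeR adjusted p = 0.019). Cfap52, its neighbour in the doublet, had 11.1, 10.4 and 9.65 CPM against 18.2, 26.2 and 18.2 CPM (log2 fold change 1.01, standard error 0.217, edgeR adjusted p = 0.0222), the smallest change that was called. Cfap77 had 1.49, 1.76 and 2.09 CPM against 7.82, 5.67 and 3.76 CPM (log2 fold change 1.68, standard error 0.318, edgeR adjusted p = 0.0167). In all 3 genes the groups did not overlap.

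The 2 MIA genes, Cfap73 and Cfap100, both rose, and the 3 other genes of that group, Cfap43, Cfap44 and Cfap57, had log2 fold changes of 0.78, 0.94 and 0.93. Cfap100 had 7.49, 5.56 and 5.94 CPM in WT and 19.6, 16.3 and 14.6 CPM in Xap5l KO sperm (log2 fold change 1.41, standard error 0.219, edgeR adjusted p = 0.0125). Cfap73 had the largest fold change of the members but few counts, with 0.485, 0.737 and 0.496 CPM against 2.23, 3.27 and 2.44 CPM (log2 fold change 2.2, standard error 0.334, edgeR adjusted p = 0.0122). Of the 6 other Cfap genes tested, 2 rose. Cfap58, a coiled-coil protein needed for a normal sperm tail, had 14.1, 14.9 and 9.19 CPM against 60.6, 66.5 and 40.7 CPM, a log2 fold change of 2.13 (standard error 0.273, edgeR adjusted p = 0.0118). Cfap157, the other of the 2, had a log2 fold change of 1.26 (standard error 0.276, edgeR adjusted p = 0.0228). Cfap97 varied widely between libraries: it had 59.9, 175 and 15.5 CPM in Xap5l KO sperm against 68.8, 46.7 and 59.9 CPM in WT.

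The sperm calls rested on the full set of 6 libraries. With WT replicate 2 removed no member was called, and the same held for removal of WT replicate 3 and of Xap5l KO replicate 2; 5 were called without Xap5l KO replicate 1, 21 without WT replicate 1 and 23 without Xap5l KO replicate 3. The loss was not particular to these genes: in each of these 3 fits with no called member, 1 gene of the whole table was called higher and at most 2 lower, against 1589 and 267 with all libraries. The log2 fold changes moved less. Over the 6 fits that each left out 1 library, no called member went below 0.81, and the adjusted p of the 16 members ranged from 0.0734 to 0.161 without WT replicate 2 and from 0.0812 to 0.173 without WT replicate 3, and from 0.0565 to 0.13 without KO replicate 2. The third KO library was the lowest of the KO libraries in 13 of the 16 called members. The 5 members still called without KO replicate 1 were Cfap58, Cfap73, Cfap100, Rsph9 and Spag6.

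**Figure D2:**
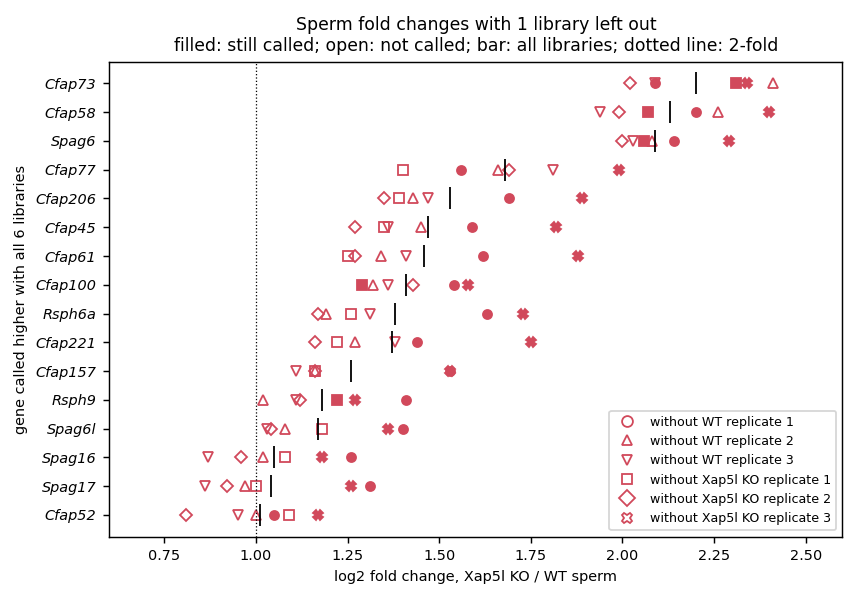
Log2 fold changes in sperm for the 16 members called higher, with each of the 6 libraries left out in turn; filled symbols are fits in which the member was still called, open symbols are fits in which it was not, and the black bar is the fit with all libraries. All values stay above 0.8, while open symbols stand for 3 or 4 of the 6 fits in every member.

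Genes known to work beside the members were read from a list of 31 other radial spoke, central apparatus, nexin-dynein regulatory complex and axonemal ruler genes. Of the 30 tested in sperm, 20 were called higher and 0 lower in edgeR (0 lower at an unadjusted p under 0.05); the median log2 fold change was 1.21 for the radial spoke list and 1.16 for the nexin-dynein list. Iqub, a radial spoke protein, had 419, 525 and 518 counts in WT and 1862, 3389 and 1586 counts in Xap5l KO sperm (log2 fold change 1.96, standard error 0.296, edgeR adjusted p = 0.0122). Foxj1, a regulator of motile cilia genes, was also higher in Xap5l KO sperm, with 374, 268 and 401 counts against 1742, 2652 and 939 counts (log2 fold change 2.11, standard error 0.409, edgeR adjusted p = 0.0177). Rfx2, a regulator of flagellar genes in spermatids, had a log2 fold change of -0.16 (edgeR adjusted p = 0.753). Among the germ cell stages, the summed markers of pachytene spermatocytes and round spermatids were higher in Xap5l KO sperm. All 7 round spermatid markers were higher, with a summed level of 106 to 151 CPM in WT and 231 to 474 CPM in Xap5l KO sperm, and 3 of 7 pachytene markers were higher, at 1730 to 2760 against 3610 to 3770 CPM. Their part in the members' change was not tested. Markers of multiciliated cells, another cell type with these axonemal genes, had 0 of 5 called in edgeR (also 0 at an unadjusted p under 0.05 and more than 2-fold). Their sum was 223 to 431 CPM in WT against 255 to 519 CPM in Xap5l KO sperm. Deup1 alone had means of 276 and 332 CPM. Of the other lists, Akap4 was higher, as 1 of 7 elongating spermatid markers. Cldn11, 1 of 6 Sertoli markers tested, and S100a9, 1 of 7 leukocyte markers, were lower. The summed Sertoli markers were higher all the same, at 637 to 759 CPM in WT and 1050 to 1330 CPM in Xap5l KO sperm. Clu, the most abundant of them, had means of 687 and 1200 CPM. None of the spermatogonia, leptotene and zygotene, Leydig and epididymal markers was called in sperm by edgeR. At an unadjusted edgeR p under 0.05 and more than 2-fold, 2 Leydig markers were lower.

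In Xap5 cKO testes the members went the other way. Of 44 members that passed the filter, 34 were lower than in WT and 1, Cfap47, was higher; over all 16821 genes tested, 10.9% were called lower and 4.15% higher. The median log2 fold change was -2.59 and 42 of 44 values were negative, where the median over all genes was -0.01. In 38 members the highest Xap5 cKO library was below the lowest WT library, against 32.4% of all genes. By adjusted p alone, 37 members were lower, against 28.1% of all genes. The falls were more than 16-fold in 15 members, between 4- and 16-fold in 9 and between 2- and 4-fold in 10. Cfap97d1, with 0 counts in all 6 libraries, and Cfap97d2, Rsph14 and Rsph4a were not tested.

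**Figure D3:**
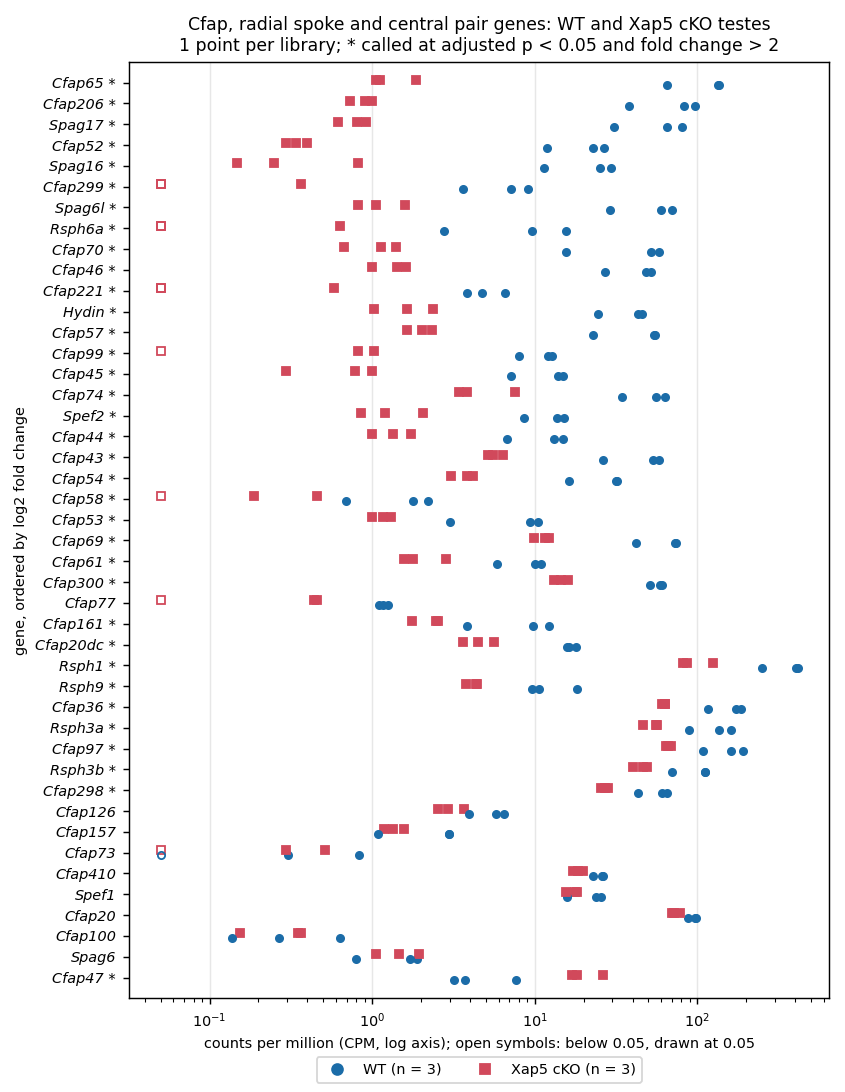
Levels in CPM on a log axis for the 44 members tested in testes, 1 point per library, with WT as circles and Xap5 cKO as squares; open symbols lie below 0.05 CPM and are drawn there. The 34 lower members lie at the top with the cKO libraries to the left, and Cfap77, which was not called, lies among them. The third WT library usually lies nearest to the cKO libraries. Cfap47 at the bottom has its cKO libraries to the right.

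All 7 radial spoke genes tested in testes fell. Cfap206 had 97.3, 82.5 and 37.8 CPM in WT and 0.902, 0.734 and 1 CPM in Xap5 cKO testes, so the lowest WT library was over 30 times the highest cKO library. Its log2 fold change was -6.36 (standard error 0.397, edgeR adjusted p = 1.09e-05). Rsph6a had 525, 353 and 100 counts in WT and 0, 0 and 21 counts in Xap5 cKO testes, and its log2 fold change of -5.44 (standard error 1.07, edgeR adjusted p = 0.00232) rests on 1 cKO library with counts. Rsph1 fell less, from 414, 406 and 251 CPM to 81.8, 86.3 and 125 CPM (log2 fold change -1.87, standard error 0.214, edgeR adjusted p = 0.000115). Even so it remained the member with the highest level per length in Xap5 cKO testes, at 71.2 ± 17.4 CPM per kilobase (SD, n = 3) against 260 ± 67.1 in WT. Cfap61, Rsph9, Rsph3a and Rsph3b had log2 fold changes of -2.11, -1.61, -1.28 and -1.1 (edgeR adjusted p = 0.000593, 0.00081, 0.000464 and 0.00066), and the call of Rsph3b was lost without WT replicate 1.

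In the central apparatus, 11 of 14 tested members fell and 1 rose. Cfap65, a central apparatus protein, had the largest fall of all members, from 4547, 4958 and 2335 counts to 36, 36 and 61 counts (log2 fold change -6.38, standard error 0.36, edgeR adjusted p = 8.8e-06). Spag17 went from 80.5, 64.9 and 30.9 CPM to 0.808, 0.616 and 0.911 CPM (log2 fold change -6.23, standard error 0.4, edgeR adjusted p = 1.16e-05). Spag16 went from 29.6, 25.3 and 11.4 CPM to 0.249, 0.147 and 0.82 CPM, with the third cKO library above the other 2 (log2 fold change -5.76, standard error 0.575, edgeR adjusted p = 5.94e-05). None of these genes had overlapping groups. Hydin, Spef2 and Cfap221 had log2 fold changes of -4.49, -3.19 and -4.63 (edgeR adjusted p = 1.97e-05, 0.000108 and 0.00289), and Cfap221 had counts in 1 of 3 cKO libraries. Spef1 had 23.9, 25.6 and 15.9 CPM in WT and 17.7, 18.1 and 15.5 CPM in Xap5 cKO testes, which overlapped (log2 fold change -0.35, standard error 0.184, edgeR adjusted p = 0.137).

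The paralogs Spag6 and Spag6l had unlike values in testes. Spag6l had 69.6, 59.7 and 29 CPM in WT and 1.59, 1.06 and 0.82 CPM in Xap5 cKO testes (log2 fold change -5.51, standard error 0.384, edgeR adjusted p = 1.52e-05). Spag6 was low in both groups, with 1.88, 0.796 and 1.72 CPM in WT and 1.93, 1.47 and 1.06 CPM in Xap5 cKO testes, and the groups overlapped. The log2 fold change of Spag6 was 0.02 (standard error 0.439, edgeR adjusted p = 0.972). Per kilobase, WT testes at P16 held 0.432 ± 0.172 CPM of Spag6 and 11.6 ± 4.64 CPM of Spag6l (SD, n = 3). The difference between the paralogs' changes was not tested.

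Cfap47, the only member on the X chromosome (79266559 to 79517285, minus strand) and a central apparatus protein, had 3.72, 3.21 and 7.7 CPM in WT and 18.1, 16.9 and 26.2 CPM in Xap5 cKO testes. Every cKO library lay above the highest WT library, which was the third. The log2 fold change was 2.06 (standard error 0.336, edgeR adjusted p = 0.000806), and the call held with each library left out in turn. Of the 634 X-linked genes tested in testes, 7.41% were called higher and 3.15% lower, against 4.13% and 11.1% of the 14801 genes on other chromosomes. The sperm table lists the same gene under its older name Gm7173, with 63, 62 and 104 counts in WT and 187, 268 and 219 counts in Xap5l KO sperm (log2 fold change 1.3, standard error 0.276, edgeR adjusted p = 0.0212); it is not counted among the 40 members tested in sperm. Sertoli, Leydig and leukocyte markers were higher in Xap5 cKO testes as summed levels, at 4080 to 4490 against 7050 to 8690 CPM for Sertoli cells, 193 to 336 against 389 to 737 CPM for Leydig cells and 61.1 to 90.6 against 134 to 178 CPM for leukocytes. By the calls, 1 of 7 Sertoli, 3 of 6 Leydig and 3 of 5 leukocyte markers were higher, and the 1 epididymal marker tested was not called; the part of these markers in the change of Cfap47 was not tested.

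Of the doublet genes, 4 of 7 tested members fell in testes. Cfap52 went from 26.7, 22.7 and 11.9 CPM to 0.342, 0.294 and 0.395 CPM (log2 fold change -5.88, standard error 0.374, edgeR adjusted p = 1.15e-05), and Cfap45 had a log2 fold change of -4.11 (edgeR adjusted p = 8.96e-05). Cfap20, which links the paired tubules of a doublet, differed from them: it had 98.7, 96.5 and 87.3 CPM in WT and 71.8, 70.4 and 78.7 CPM in Xap5 cKO testes. The groups of Cfap20 did not overlap, but its log2 fold change of -0.35 (standard error 0.0785, edgeR adjusted p = 0.00444) was far from 2-fold. Cfap77 had 1.16, 1.1 and 1.25 CPM in WT and 0, 0.44 and 0.456 CPM in Xap5 cKO testes, without overlap. It was not called (log2 fold change -1.95, standard error 0.835, edgeR adjusted p = 0.0775). In the tether and MIA group, Cfap43, Cfap44 and Cfap57 fell, with log2 fold changes of -3, -3.1 and -4.45, and the MIA genes Cfap73 and Cfap100 were below 1 CPM in every testis library, with values of -0.47 and -0.26 that did not pass the test.

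Among the other Cfap genes, 9 of 11 tested members fell. Cfap299 had 305, 261 and 130 counts in WT and 0, 0 and 12 counts in Xap5 cKO testes, so its log2 fold change of -5.73 (standard error 0.892, edgeR adjusted p = 0.000623) rests on 1 cKO library with counts. Cfap36 and Cfap97 went from 187, 173 and 117 to 60.5, 63.2 and 63.7 CPM and from 190, 161 and 108 to 65.8, 63.8 and 68.5 CPM. Their log2 fold changes were -1.35 and -1.21 (edgeR adjusted p = 0.00011 and 0.000359). Cfap58 was near 2 CPM or below in all testis libraries; its log2 fold change of -2.85 (edgeR adjusted p = 0.0248) was no longer called in 3 of the 6 fits that left out 1 library. Cfap300, a dynein assembly factor, had WT libraries close together at 58.8, 60.8 and 51.2 CPM and cKO libraries at 13.1, 16.1 and 14.6 CPM (log2 fold change -1.96, standard error 0.118, edgeR adjusted p = 1.03e-05).

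WT replicate 3 of the testis libraries stood apart from the other 2 in these genes. In 33 of the 34 members that fell it lay below both other WT libraries and above every Xap5 cKO library, and its level was a median 0.526 of the mean of the other 2. Pachytene spermatocyte markers showed the same order, with summed levels of 2110, 2050 and 1020 CPM in the 3 WT libraries and 150, 151 and 233 CPM in Xap5 cKO testes, and all 7 of these markers fell. Markers of leptotene and zygotene spermatocytes fell in 6 of 7 cases, at 1640 to 1900 against 789 to 1090 CPM, spermatogonia markers in 2 of 7, at 719 to 818 against 467 to 508 CPM, round spermatid markers in 2 of 5, at 18.9 to 38.1 against 9.67 to 12.4 CPM, and multiciliated cell markers in 4 of 6, at 15.7 to 16.9 against 3.86 to 6.57 CPM. The round spermatid markers that fell were Tex21 and Acr. Acr, the most abundant of that list, had means of 20.5 CPM in WT and 0.112 CPM in Xap5 cKO testes. The part of these marker lists in the members' fall was not tested. Without WT replicate 3, 37 members were called lower and 1 higher; with each other library left out, between 31 and 35 were lower. Of the partner genes, 24 of 29 tested fell and 0 rose in edgeR (0 rose at an unadjusted p under 0.05). Foxj1 had 84, 70 and 98 counts in WT and 44, 16 and 43 counts in Xap5 cKO testes (log2 fold change -1.18, standard error 0.441, edgeR adjusted p = 0.0474), and Rfx2 had a log2 fold change of -2.55 (edgeR adjusted p = 2.72e-05).

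**Figure D4:**
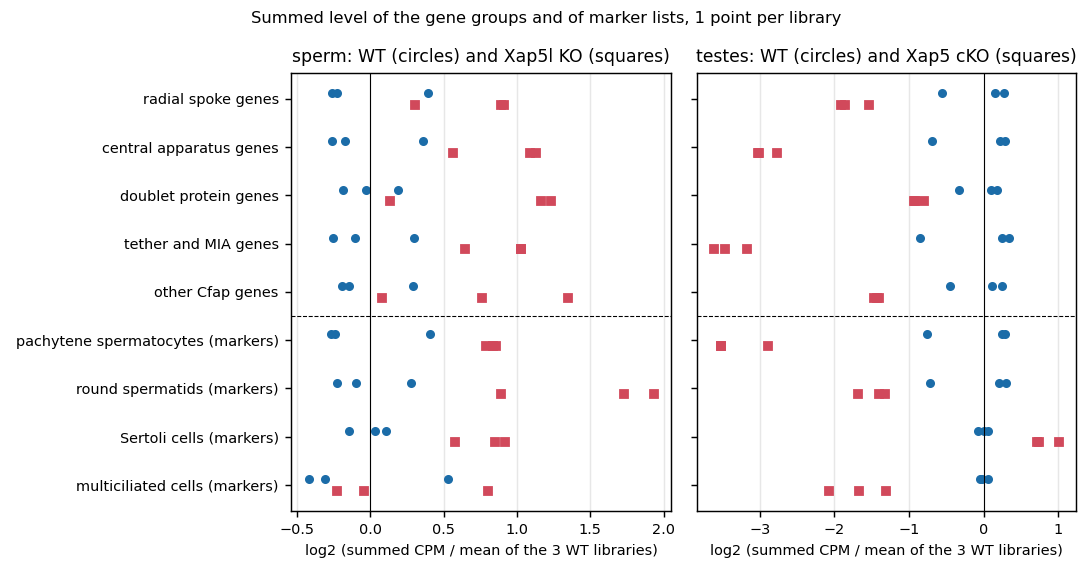
Summed CPM of each group of members and of 4 marker lists, per library, as log2 of the ratio to the mean of the 3 WT libraries, in sperm (left) and testes (right). In testes the third WT library lies left of the other 2 in all 5 member groups and in the pachytene and round spermatid markers. In sperm the 3 Xap5l KO libraries lie to the right of all WT libraries in the central apparatus and tether groups. They also do so in the pachytene, round spermatid and Sertoli markers. In the other member groups and the multiciliated cell markers the sperm genotypes overlap.

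Of the 38 members tested in both tissues under the same symbol, 37 had a positive log2 fold change in Xap5l KO sperm and a negative one in Xap5 cKO testes. The calls were opposite in 11: Cfap206, Cfap221, Cfap45, Cfap52, Cfap58, Cfap61, Rsph6a, Rsph9, Spag16, Spag17 and Spag6l were higher in sperm and lower in testes. Another 19 were called lower in testes alone, 5 (Cfap100, Cfap157, Cfap73, Cfap77 and Spag6) higher in sperm alone, and 3 (Cfap126, Cfap20 and Spef1) in neither. Whether the changes differ between the tissues was not tested. Members listed in sperm under older names are not among the 38. Cfap47 was called higher in both tissues (log2 fold changes 1.3 in sperm and 2.06 in testes). Cfap20dc (-0.59 and -1.87) and Cfap410 (-0.09 and -0.44) were negative in both. Cfap298, Cfap299 and Cfap300 were positive in sperm and negative in testes. The sizes of the 2 changes were not ordered alike: over the 38 genes Spearman's rho was -0.12 and Pearson's r 0.01, given as a description since genes are not independent and share their libraries. Cfap206 was among the largest changes in both tissues, whereas Cfap65 had the largest fall in testes and 0.76 in sperm (edgeR adjusted p = 0.132). The 2 comparisons share no samples, and differ in tissue, age and gene deleted, so that these cannot be told apart.

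**Figure D5:**
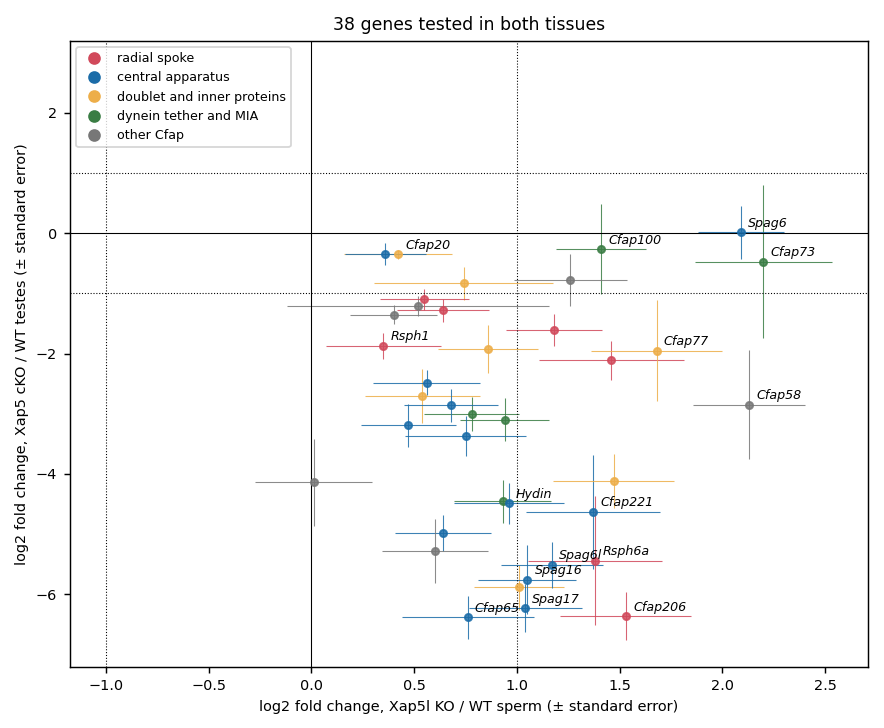
Log2 fold change in Xap5l KO sperm (horizontal axis) and in Xap5 cKO testes (vertical axis) with standard errors for the 38 members tested in both, coloured by role; dotted lines mark 2-fold. Of these, 37 lie to the lower right of the zero lines, Spag6 lies on the horizontal zero line at 2.09, and Cfap206 lies at 1.53 and -6.36.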

How the data were processed

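The authors purified poly(A) RNA, sequenced it as paired-end reads on an Illumina platform, mapped reads to GRCm38 with HISAT2 2.1.0 and assembled them with StringTie, and the deposited tables hold whole-number counts per gene, 1 table per tissue, without normalization. How reads were counted, how multi-mapping reads were handled and whether strand was used are not given in the sources used here. The submitters' processing notes also name FastQC 0.11.2, Trimmomatic 0.36 and DESeq2 1.12.4.

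Groups came from the sample labels. Each tissue was fitted on its own with genotype as the only term. After filterByExpr and TMM scaling, genotypes were compared by the quasi-likelihood test of edgeR (version 4.0.16, limma 3.58.1, R 4.3.3), with Benjamini-Hochberg adjustment over all genes of the tissue, and called at an adjusted p under 0.05 and a fold change above 2. Standard errors are the log2 fold change divided by the square root of the F statistic. An exact permutation test of 3 against 3 libraries cannot go below 0.1 and was not used. The fits were tested on simulated data. The common dispersion corresponded to a biological coefficient of variation of 0.287 (sperm) and 0.174 (testes). Replicates of a group differed beyond sampling noise, with a chi-square per degree of freedom of at least 11, and precision is that of 3 libraries.

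The members, role groups, partner and marker lists were chosen with earlier results of these data known. Genes were named by rule: all Rsph, Spag, Hydin and Spef members, the 8 largest called changes in each direction with at least 5 CPM in either genotype, the 3 highest WT levels, members called in opposite directions, the targeted genes and 2 regulators; Cfap members outside it, Iqub and Gm7173 were chosen after their values were seen. The alternatives tried were RLE size factors, the low-count filter removed, a minimum of 10 counts per library, library size alone, DESeq2 1.42.0, a replicate block, summed entries of one gene, no fold threshold and each library left out. Library size alone was chosen after the data were examined. Positions, exonic lengths and overlaps came from GENCODE M21, promoters from RefSeq for GRCm38.p6. Python 3.11.15, pandas 2.3.3 and matplotlib 3.10.9 were used.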

Additional observations from a re-analysis of the deposited data

How the results depend on the processing

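Of 1083 fold changes of tested members recomputed under the alternatives, 985 kept their direction and side of the threshold, 68 lost the call with the same direction, 18 gained one and 12 reversed. Of 56 recomputed counts of called members, 52 equalled the original count or stayed within 1.5 times it. The other 4, all counts of members higher in sperm with 1 library left out, did not. The 52 include the counts of members lower in sperm, which were 0 in every fit, and higher in testes, which were 1 in every fit. Those constant counts say little about stability. The number of members called higher in sperm was 18 without a filter, 16 with at least 10 counts in every library, 17 with RLE size factors or DESeq2, 15 with library size alone and 20 without the fold threshold, and ranged from 0 to 23 with 1 library left out. In testes 28 of 35 tested members were lower with at least 10 counts in every library, a filter that removes genes that fell to 0, and between 31 and 37 with 1 library left out.

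The mean of each genotype was subtracted from the log2 CPM of each gene, and the remainders were correlated between WT and mutant libraries. For same-numbered libraries these correlations were 0.149, -0.0229 and -0.0809 in sperm and 0.0125, -0.0141 and -0.00805 in testes. The remainders of differently numbered libraries of the 2 genotypes correlated at -0.138 to 0.178 in sperm. These values do not settle whether the replicate numbers pair the samples. Replicate 1 had the lowest TMM factor in both sperm genotypes, 0.821 in WT and 0.808 in Xap5l KO. It also had the highest summed elongating spermatid markers in both, at 128000 and 79200 CPM. A shared effect of replicate 1 was not tested. With a replicate block, 14 members were higher in sperm, and 33 were lower and 1 higher in testes; Cfap97 in sperm reversed to -0.09.

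With 1 library left out, log2 fold changes that changed sign ranged from -0.64 to 1.09 for Cfap97, -0.85 to 0.07 for Rsph10b and -0.18 to 0.37 for Cfap99 in sperm, and from -0.64 to 0.52 for Cfap100, -1.32 to 0.82 for Cfap73 and -0.28 to 0.24 for Spag6 in testes; none of them was called with all libraries, and the cause was not tested.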

Other observations

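Several members that the sperm table does not list under their present names were found there under older ones. Cfap299, listed as 1700007G11Rik, had 272, 197 and 289 counts in WT and 519, 688 and 564 counts in Xap5l KO sperm (log2 fold change 0.95, standard error 0.264, edgeR adjusted p = 0.0466), just under the 2-fold threshold. Cfap298, Cfap300 and Cfap410, listed as 1110004E09Rik, 9230110C19Rik and 1810043G02Rik, had log2 fold changes of 0.35, 0.16 and -0.09 (edgeR adjusted p = 0.25, 0.599 and 0.803). Cfap97d1, which had no count in P16 testes, had 554, 539 and 468 counts in WT sperm as 1700006E09Rik and 874, 842 and 1104 counts in Xap5l KO sperm (log2 fold change 0.57, standard error 0.261, edgeR adjusted p = 0.154). Cfap20dc, listed as 4930452B06Rik, was below 0 at -0.59 (standard error 0.228, edgeR adjusted p = 0.108). Cfap97d2, listed as 4932443I19Rik, had the lowest value of these members, with 30, 24 and 26 counts in WT and 9, 14 and 31 counts in Xap5l KO sperm, which overlapped (log2 fold change -0.94, standard error 0.464, edgeR adjusted p = 0.186).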
